A study of Mus musculus with 8 samples.

Results

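Circular RNAs (circRNAs) of intermediate size that use the same splice site as another circle were followed in mouse renal proximal tubules after cisplatin. Members were all circRNAs with a genomic span of at least 2000 and under 30000 bases whose start or end position, on the same chromosome, was also the start or end of at least 1 other circRNA in the table. This gave 516 members among 2163 circRNAs and among 1340 of that span, the other 824 of which shared no end. No count value entered the choice of members, but a partner circle had to be detected, so the choice was not independent of detection. The span limits were the only threshold: just inside them lay a circle in Zfyve9 of 2024 bases with a summed count of 84 and one in Ubn2 of 29768 bases with 23. Just outside were circles in Fmn1 of 1994 bases with 118 and in Arhgap26 of 30000 bases with 154.

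The animals were male C57BL/6 mice, and the treatment was cisplatin, a platinum drug toxic to the kidney tubule, injected into the peritoneum at 30 mg/kg. There were 4 groups of 2 libraries, at 0 h (the control) and at 24, 48 and 72 h after injection. All 8 samples carry the same treatment text, and the labels do not say whether the 0 h animals received an injection. Tubular cells were isolated from renal cortex, and ribosomal RNA was removed from total RNA before library preparation. The design text calls the duplicates biological without naming separate animals, so every p-value measures only the spread between these libraries. Libraries are named by time and by the letter a or b that their data column carries. All values were compared with the same 2 libraries at 0 h, so the 3 contrasts share their control.

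A circRNA forms when the spliceosome joins a downstream splice donor back to an upstream splice acceptor of the same transcript, a reaction called back-splicing. One acceptor can pair with several donors, and one donor with several acceptors, so that a locus yields several circles that compete for a common splice site; this is termed alternative back-splicing. RNA-binding proteins such as Quaking and the double-strand RNA editor ADAR, and inverted repeats in the flanking introns, are known to influence which circles form. Having no free ends, circRNAs resist exonucleases and usually outlast the linear mRNA of their gene.

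The sequence at a shared end shows what the partner circles have in common. For 3 shared ends, all of them splice acceptors, the site lay inside a RefSeq promoter window (build GRCm38.p6), and each is given below in the direction of transcription with the splice acceptor dinucleotide in capitals and 12 bases on either side. The base after the capitals is the first base of every circle that uses the site, so the letters to its right belong to the circles and those to its left to the upstream intron. The Arhgap5 site lies at chr12:52516065-52516090 on the plus strand, the Rbm4 site at chr19:4793998-4794023 on the minus strand and the Ncoa6 site at chr2:155440774-155440799 on the minus strand.
Arhgap5: tttcccctttctAGgaagatgatcca
Rbm4: tcctggcctctcAGgtaattggcgtt
Ncoa6: tctctctctaaaAGaattctgattgg
All 3 of 3 sites carried the AG that marks an acceptor. These 3 ends had summed counts of 699, 900 and 151 over all their circles, and the circles at the Arhgap5 and Ncoa6 ends are described further down. At the Rbm4 end, in the gene of an RNA-binding splicing regulator (the position also lies inside a predicted gene), the non-member circle of 1612 bases took 71.4% and 74.0% of the counts at 0 h, 85.7% and 71.1% after 24 h, 71.8% and 68.8% after 48 h and 80% and 76.3% after 72 h. Members of 6649 and 9286 bases took the rest, with summed counts of 137 and 88.

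The members used 358 shared ends. Of these, 292 were shared by 2 circles, 57 by 3, 6 by 4, 2 by 5 and 1 by 6. Both ends were shared in 45 members, the start alone in 227 and the end alone in 244. Partners were not always members: 211 partner circles had another span, 60 of them under 2000 bases and 151 of 30000 bases or more, while 162 ends joined members only. On the strand of the host gene, 178 shared ends were splice acceptors and 144 splice donors, and 36 could not be given a strand. Ends with 3 or more circles numbered 41 among acceptors and 16 among donors. Acceptors had a median summed count of 81 and donors of 68.5, all circles of an end added.

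**Figure D1:**
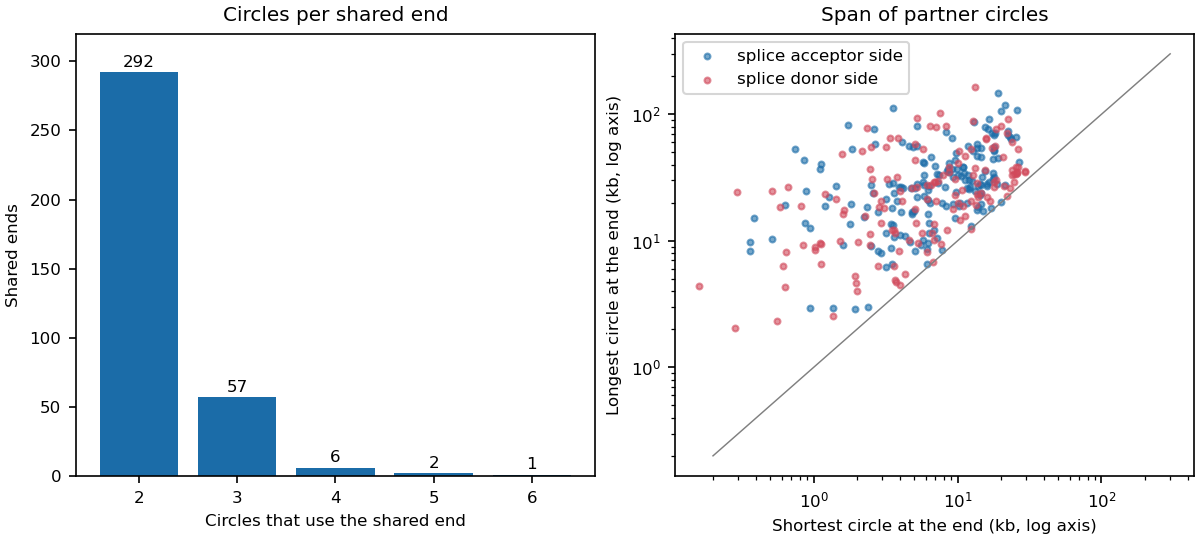
Left, number of shared ends (vertical axis) by the number of circles that use them: 292 of the 358 ends have 2 circles. Right, span of the longest against the shortest circle at each end in kilobases on log axes, 1 point per end, coloured by splice side, with a grey line of equal span; the 36 ends without a strand are not drawn.

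Protein-coding genes held most members: 461 lay inside exactly 1, 6 inside several and 49 inside none. These hosts numbered 240, of which 78 held 1 member and 42 held 3 or more. Cep128, which encodes a centriolar protein, held the most with 7. Of the textbook marker genes of nephron segments, podocytes, endothelium and leukocytes that were checked, only Trpm6, a magnesium channel of the distal convoluted tubule, hosted a member. Exon annotation was not used here, so positions are given by gene and not by exon or intron.

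Members were spread over low counts. Their summed count over the 8 libraries had a median of 24.5 and ranged from 2 to 1491, against a median of 19 for the mid-size circles that share no end and of 19 for all circRNAs. At least 100 counts were reached by 90 members, or 17.4%, against 12.9% of the non-sharing circles of that size and 14.6% of all circRNAs. The median span was 11828 bases in members and 7648.5 bases in the non-sharing ones. A count above 0 in at least 4 of 8 libraries, needed for testing, was met by 427 members (82.8%) and by 582 non-sharing circles (70.6%), and 89 members were not tested. Members needed a detected partner, so these comparisons of counts are not independent of the rule that chose them. In each library the members held 27.4% to 30.5% of all circRNA counts, or 3734 to 6246 of 13603 to 21024.

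The shorter circle was usually the more abundant of a pair. Where an end had a single top circle, which held for 347 of 358 ends, it was the shortest at 214 (61.7%). At the ends with exactly 2 circles and no tie this was 184 of 284 (64.8%), and at the 105 of those ends with at least 100 counts it was 66 against 39. Summed over all 292 ends of 2 circles, the shorter circle took 64.5% and 61.3% of the counts at 0 h, 61.2% and 62.7% after 24 h, 60.7% and 61.9% after 48 h and 63.1% and 60.4% after 72 h. All 3 later groups overlapped the 0 h group.

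How one-sided an end was varied widely. Among the 140 ends with at least 100 counts, the top circle took a median of 71.0% (from 36.3% to 98.3%), more than 80% at 46 ends and under 60% at 40. It was the same circle in all 8 libraries at 79 ends and changed at 61. The share of the top circle differed by a median of 7.75 percentage points between duplicate libraries, and the group means differed from 0 h by a median of 7.18 points at 24 h, 6.70 at 48 h and 6.69 after 72 h. A difference between means of 2 libraries varies less than one between single libraries. At the 27 ends with at least 500 counts the duplicates differed by a median of 3.84 points and the means by 3.58, 3.31 and 4.65 points.

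The most heavily counted ends gave the most precise shares. At the acceptor in Rasa2 (chr9, end 96611499), a Ras GTPase-activating protein gene, the circle of 19550 bases had counts of 148 and 195 at 0 h, 161 and 206 after 24 h, 233 and 181 after 48 h and 204 and 163 after 72 h. The circle of 8787 bases had 144 and 155, 138 and 162, 211 and 159, and 144 and 143 in the same order, and the circle of 35214 bases had 3 to 11. The 19550-base circle thus took 49.7% and 54.5% of the end at 0 h and 51.6% to 57.1% later, with overlapping groups. The Wilson 95% interval of the 8787-base share in 0 h library a, 48.3%, ran from 42.7% to 54.0%; such intervals cover counting error only, since reads without molecular identifiers are not independent molecules.

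Tlk1, a kinase of chromatin assembly, had circles of 16992 and 18134 bases at one acceptor (chr2, end 70786995), and the first took 82.2% and 80.6% at 0 h, 83.7% and 82.7% after 24 h, 82.5% and 83.5% after 48 h and 81.4% and 79.8% after 72 h. Both 24 h and both 48 h values lay above the controls, by little, and the 72 h values overlapped them. Bckdhb, a subunit of the mitochondrial enzyme that degrades branched-chain keto acids, had a circle of 23844 bases that took 92.9% and 90.6% at 0 h and 87.4% to 91.9% later, beside a partner of 60096 bases, and its 72 h values of 88.9% and 88.0% lay below both controls. At the end in Glis3 (chr19, start 28530873), a zinc-finger factor gene in which mutations cause renal cysts, the member of 9536 bases and the 1114-base partner were close to even: the member took 42.2% and 48.7% at 0 h, 46.9% and 38.6% after 24 h, 48.3% and 57.2% after 48 h and 46.9% and 43.0% after 72 h. Of the 6 later values, 38.6% lay below both controls and 57.2% above both.

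Arhgap10, a GTPase-activating protein gene, showed how wide duplicates could be. Its 20521-base member took 46.1% and 66.5% of the counts at 0 h, 77.7% and 58.3% after 24 h, 60.9% and 57.1% after 48 h and 72.4% and 64.7% after 72 h, at an end shared with circles of 13547 and 54430 bases. Mettl9, which encodes a protein histidine methyltransferase, had a minor member of 5313 bases that took 9.01% and 12.5% at 0 h, 15.6% and 16.2% after 24 h, 14.97% and 18.1% after 48 h and 15.3% and 21.1% after 72 h, beside a member of 9562 bases. All 6 later libraries lay above both 0 h libraries there, but the end did not pass the test described next.

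**Figure D2:**
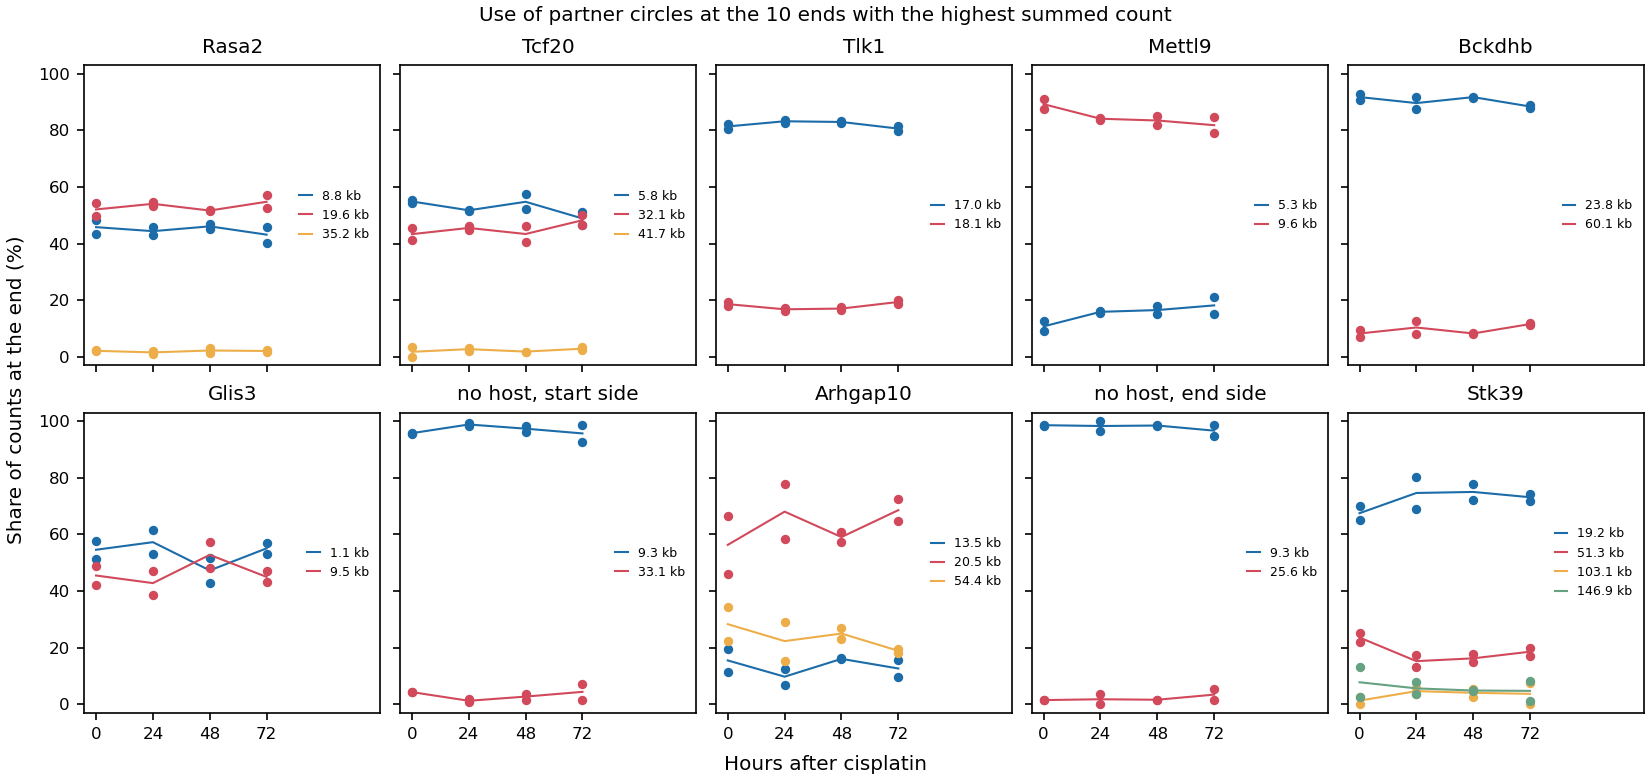
Share of the counts at an end taken by each of its circles (vertical axis, %) against hours after cisplatin, for the 10 ends with the highest summed count; points are libraries, lines join group means and colours mark circles by span. The Tlk1 circles stay within 79.8% to 83.7% and 16.3% to 20.2%, while the 20.5 kb Arhgap10 circle has 46.1% and 66.5% in the 0 h duplicates; the 2 panels without a host show both ends of a single circle on chromosome 5.

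Ends with many circles were dominated by 1 circle or were too thin to resolve. The end with 6 circles (chrX, end 151334013), in no single protein-coding gene, held members of 18982 and 22676 bases with summed counts of 3 and 15, and its most counted circle, of 40249 bases, had 38. Tasp1, the gene of a threonine protease that cleaves the methyltransferase MLL, had 5 circles at one acceptor (chr2, end 140057499). Its 15406-base member took 69.8% and 67.4% at 0 h and 64.4% to 69.4% later. The partner of 79893 bases took 17.5% and 19.8%, then 16.0% to 25.3%. The 5 circles at an end in Sema5a, a semaphorin gene, had summed counts of 6 to 64, and its only member, of 4239 bases, had 10.

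Whether use moved between partner circles with time was tested by edgeR's differential exon usage test, with each shared end in the place of a gene and its circles in the place of exons. Among all circRNAs, 305 ends had at least 2 testable circles, 263 of them with a member. No end passed an adjusted p of 0.05 at 24, 48 or 72 h or for the mean of the 3 later times against 0 h (0% of all 305 ends in each contrast). The smallest adjusted p in edgeR at an end with a member was 0.9985, 0.9997, 1 and 0.9995 in that order, and the unadjusted p was under 0.05 at 8, 3, 6 and 3 of the 263 ends, against 10, 4, 6 and 3 of all 305. A second test, limma on the log2 ratio of a circle to the other circles of its end, was chosen after seeing these results and also called 0 ends, with an unadjusted p under 0.05 for a circle at 31, 16, 23 and 26 of the 263 ends, against 35, 19, 25 and 26 of all 305. Its smallest adjusted p was 0.2851, 0.3631, 0.4279 and 0.3796. A voom version of the exon usage test and edgeR's F test per end, the latter also added later, called 0 as well. The edgeR counts were 3.04%, 1.14%, 2.28% and 1.14% of the 263 ends, fewer than the 0.05 threshold gives where nothing changes. The limma counts, from the smallest p among an end's circles, were 11.8%, 6.08%, 8.75% and 9.89%, more than that. The edgeR and limma tests thus differed in strictness, and high adjusted p in edgeR do not show that use stayed the same.

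These tests could see only large shifts at most ends. The 95% interval of the change in the log2 ratio, where 1 is a 2-fold change, had a median half-width of 1.24 at 24 h, 1.21 at 48 h, 1.27 at 72 h and 1.03 for the mean of later times at the 78 ends with at least 200 counts. At the 71 ends with under 50 counts it was 3.49, 3.16, 3.40 and 2.74. Of the 78 ends, 23, 21, 19 and 34 had a half-width under 1 in those contrasts, and the unadjusted interval excluded 0 at 10, 6, 10 and 11. These widths and counts take 1 circle per end, the first listed by position. With 2 tested circles at an end, the other has the same interval with the sign reversed. With 3 or more it can differ, so the circles named below need not be those counted. At the Rasa2 end, which had the highest count, the 19550-base circle changed against its partners by 0.08 for the mean of later times, with an interval of -0.19 to 0.34. For Tlk1 the 16992-base circle changed by 0.10 (-0.36 to 0.56), for the 9536-base Glis3 circle by 0.03 (-0.42 to 0.47) and for the 15406-base Tasp1 circle by -0.12 (-0.64 to 0.41). The 5313-base Mettl9 circle changed by 0.70 (0.03 to 1.37), with an adjusted p of 0.683 in limma.

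**Figure D3:**
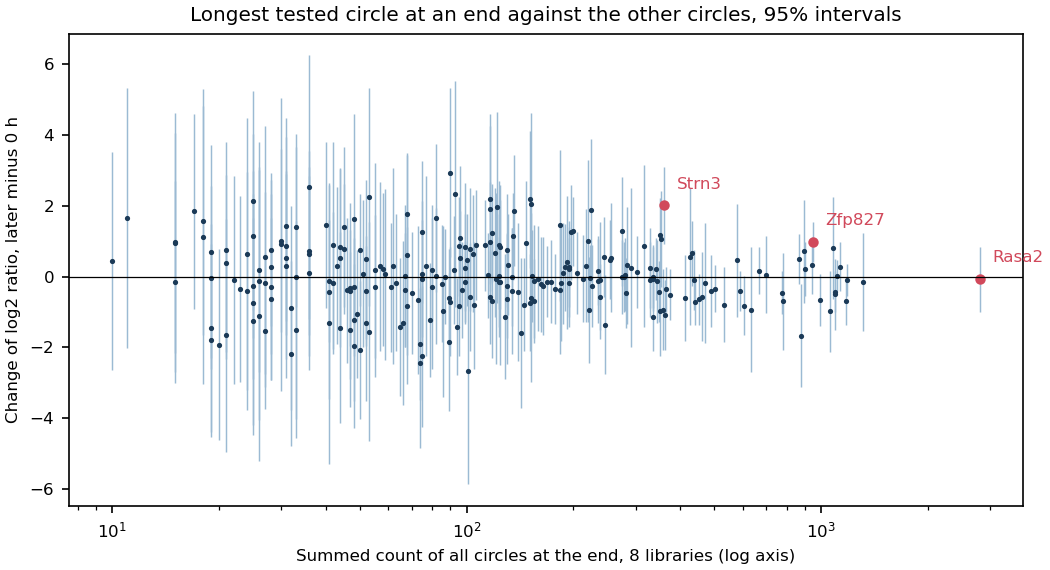
Change in the log2 ratio of the longest tested circle at an end to the other circles of that end, mean of 24, 48 and 72 h minus 0 h (vertical axis), against the summed count of the end (log axis); dots are estimates and lines 95% intervals from limma, not adjusted for the number of ends. Intervals narrow as counts rise, the 35214-base Rasa2 circle lies at -0.07, and Strn3 and Zfp827 are marked; no end passed after adjustment.

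The ends with the smallest p, none of which passed, were looked at singly. Strn3, a scaffold subunit of phosphatase 2A complexes, had 2 members at one acceptor (chr12, end 51661713). The longer one (chr12:51647994-51661713, 13720 bases) had counts of 5 and 4 at 0 h, 22 and 35 after 24 h, 39 and 35 after 48 h and 19 and 18 after 72 h. The shorter one (chr12:51655402-51661713, 6312 bases) had 19 and 16, 26 and 30, 23 and 35, and 16 and 18. The longer circle therefore took 20.8% and 20% of the end at 0 h, 45.8% and 53.8% after 24 h, 62.9% and 50% after 48 h and 54.3% and 50% after 72 h, and all 6 later libraries lay above both at 0 h. The Wilson 95% intervals were 9.24% to 40.5% and 8.07% to 41.6% at 0 h, and 50.5% to 73.8% in 48 h library a. By edgeR the unadjusted p of this end was 0.0437 at 24 h, 0.0192 at 48 h, 0.0452 at 72 h and 0.0163 for the mean of later times. In limma the ratio of the longer to the shorter circle rose by 2.01 on the log2 scale (0.92 to 3.10, unadjusted p = 0.00113, adjusted p = 0.380), and so did not pass after adjustment.

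At the end in Zfp827 (chr8, start 79118175), a zinc-finger protein gene, the minor member of 2366 bases had counts of 22 and 28 at 0 h, 15 and 13 after 24 h, 25 and 12 after 48 h and 8 and 11 after 72 h. Its partner, a member of 18489 bases, had 85 and 104, 96 and 102, 115 and 100, and 99 and 113. The share of the minor circle was 20.6% and 21.2% at 0 h, 13.5% and 11.3% after 24 h, 17.9% and 10.7% after 48 h and 7.48% and 8.87% after 72 h, below both 0 h libraries in all 6 later ones. Its log2 ratio to the partner differed from 0 h by -1.51 at 72 h (-2.32 to -0.70), with an edgeR p for the end of 0.0142 before adjustment and an adjusted p in limma of 0.428.

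Ncoa6, a nuclear receptor coactivator gene whose acceptor sequence is printed above, had members of 2926 and 7970 bases. The longer had counts of 1 and 1 at 0 h, 1 and 5 after 24 h, 10 and 3 after 48 h and 4 and 6 after 72 h. Its share was 9.09% and 3.70%, 4.55% and 25%, 34.5% and 20%, and 36.4% and 37.5%. Both 48 h and both 72 h libraries lay above the controls, from few counts, and the edgeR p for the end at 72 h was 0.0398 before adjustment.

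The other ends named by smallest p rested on fewer counts or on 1 minor circle. In Cwf19l2, a gene related to splicing factors, the 2480-base member had counts of 6 and 3 at 0 h and 2 to 8 later, while the partner of 36908 bases had 0 and 1 at 0 h, then 18 and 7, 16 and 6, and 6 and 2. In Mbtd1, a chromatin reader gene, the 28800-base member had 1 and 0 at 0 h and 7 and 10 after 48 h beside a 7300-base member with 14 and 17, then 24 and 13. In Cdk8, the kinase of the Mediator complex, the 26735-base member had 5 and 1 at 0 h and 18 and 7 after 24 h. The 12231-base member beside it had 19 and 52, then 29 and 23. The longer member's share in 24 h library b, 23.3%, was close to the 20.8% of 0 h library a, while its share in 24 h library a was higher. At the remaining 4 ends the less counted circle fell to 0 in both libraries of 1 time. At 24 h it was the 19859-base member in Plcl1 and the 10922-base member in Kat6b. At 48 h it was the 20495-base member in Phf21a, and at 72 h the 28256-base member in Magi1. Those circles had summed counts of 22, 23, 15 and 12, and a ratio against 0 gives no size. In Plcl1 the partner of 6389 bases took 54.2% of the summed counts, so that pair was near even.

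Circle abundance was then tested for each member singly with edgeR's quasi-likelihood test over all 1574 circRNAs with enough counts, 427 of them members. At 24 h 7 members were higher and 0 lower than at 0 h (1.08% of all circRNAs tested were higher and 0.699% lower). At 48 h 5 were higher and 1 lower (background 0.826% and 0.445%), and at 72 h 0 were higher and 3 lower (background 0.381% and 0.953%). In either direction 1.64%, 1.41% and 0.703% of members were called against 1.78%, 1.27% and 1.33% of all, so the shares were near the background at 24 and 48 h. An unadjusted p under 0.05 in edgeR was reached by 12.4%, 8.43% and 12.9% of members (53, 36 and 55) in time order, against 10.9%, 8.45% and 10.6% of all circRNAs tested. DESeq2 called 5, 5 and 4 members among 18, 13 and 17 of all circRNAs. The 72 h count of 3 depended on the libraries in the fit: it was 6 without 24 h library a and 8 without 24 h library b, while other omissions gave 2 or 3. The median log2 fold change of tested members at 24 h was 0.03, against -0.08 over all circRNAs tested. In all, 10 distinct members were called in some contrast. Non-overlap with 0 h, on counts scaled for library size, was common. It held for 38.4%, 41.7% and 44% of tested members at 24, 48 and 72 h. Over all circRNAs tested it held for 37.8%, 38.2% and 43.5%. Called members were named below only where their libraries did not overlap, so non-overlap in them is not added evidence.

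Stk39 encodes SPAK, a kinase that regulates cation-chloride cotransporters. Its member (chr2:68390914-68410141, 19228 bases) had counts of 28 and 50 at 0 h, 117 and 143 after 24 h, 147 and 148 after 48 h and 79 and 61 after 72 h. All 6 later libraries lay above both controls. Its log2 fold change was 1.54 ± 0.23 (SE, edgeR adjusted p = 6.28e-09) at 24 h and 1.59 ± 0.23 (adjusted p = 8.55e-10) at 48 h. At 72 h it was 0.69 with an adjusted p of 0.162. The partner of 51328 bases at the same acceptor had 10 and 17, 19 and 36, 36 and 28, and 22 and 14, with log2 fold changes of 0.82 and 0.90 at 24 and 48 h that did not pass (edgeR adjusted p = 0.458 and 0.456). The partner of 103101 bases had 1 and 0, 5 and 12, 11 and 5, and 0 and 6, with log2 fold changes of 3.602 and 3.36 that did not pass (edgeR adjusted p = 0.0788 and 0.183). The partner of 146907 bases had 1 and 10, 5 and 16, 10 and 9, and 9 and 1, with overlapping groups at 24 h. The member took 70.0% and 64.9% of the end at 0 h and 69.1% to 80.1% later, and its change against its partners for the mean of later times was 0.49 (-0.19 to 1.18).

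Both circles of the Arhgap5 acceptor rose. Arhgap5 encodes a GTPase-activating protein. The 3889-base member (chr12:52516079-52519967) had 20 and 25 at 0 h, 133 and 152 after 24 h, 116 and 107 after 48 h and 12 and 18 after 72 h. The 26558-base member (chr12:52516079-52542636) had 2 and 7, 18 and 27, 26 and 26, and 5 and 5. Both were above the controls in all 24 and 48 h libraries, and the shorter one was below both controls at 72 h, with a log2 fold change of -0.74 that did not pass (edgeR adjusted p = 0.451). Log2 fold changes were 2.45 ± 0.26 (edgeR adjusted p = 8.6e-18) and 2.10 ± 0.57 (adjusted p = 0.0169) at 24 h for the shorter and the longer circle. At 48 h they were 1.96 (adjusted p = 9.19e-11) and 2.18 (adjusted p = 0.00982). The shorter circle took 90.9% and 78.1% of the end at 0 h, 88.1% and 84.9% after 24 h, 81.7% and 80.5% after 48 h and 70.6% and 78.3% after 72 h, and its ratio to the longer changed by -0.06 (-1.13 to 1.02) for the mean of later times. The call on the longer circle at 24 h was lost with DESeq2 (adjusted p = 0.0947) and without 0 h library a (0.267), 0 h library b (0.0649) or 24 h library b (0.132). At 48 h it was lost with DESeq2 (0.0582) and without 0 h library a (0.255) or 48 h library b (0.188).

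The longer Strn3 circle, whose counts are given above, rose by 2.42 ± 0.52 on the log2 scale at 24 h (edgeR adjusted p = 4.56e-04) and by 2.66 ± 0.50 at 48 h (adjusted p = 2.61e-05). The shorter circle had 0.45 and 0.38, with adjusted p of 0.722 and 0.875 in edgeR. A call on one circle and none on its partner is not a test of the difference, and that test is the usage test above, which did not pass after adjustment. Without 0 h library b the 24 h call was lost (adjusted p = 0.108). At 72 h the longer circle had a log2 fold change of 1.85 with an adjusted p of 0.0535.

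Scaper encodes a protein of the endoplasmic reticulum that binds cyclin A. Its 21799-base member (chr9:55838120-55859918) had 14 and 18 at 0 h, 57 and 54 after 24 h, 61 and 45 after 48 h and 35 and 27 after 72 h, above the controls in all 6 later libraries. The log2 fold change was 1.58 ± 0.34 at 24 h (edgeR adjusted p = 4.57e-04) and 1.37 ± 0.34 at 48 h (adjusted p = 0.00727). The 1838-base partner at the same acceptor had 15 and 10, 24 and 12, 17 and 13, and 7 and 9, with log2 fold changes of 0.29 and -0.11 at 24 and 48 h that did not pass (edgeR adjusted p = 0.890 and 0.977). The other partner, of 52906 bases, had 2 and 4, 7 and 8, 11 and 8, and 1 and 1, and its log2 fold changes of 1.10 and 1.29 did not pass either (edgeR adjusted p = 0.650 and 0.626). Its 24 h and 48 h libraries lay above both controls, as the member's did. The member's share was 45.2% and 56.2% at 0 h and 64.8% to 81.4% later, without overlap, and its ratio to the other circles rose by 1.26 for the mean of later times (0.46 to 2.05, limma adjusted p = 0.522). By edgeR the end had an unadjusted p of 0.0988 for that mean. The 48 h abundance call was lost without any 1 of 0 h library a (adjusted p = 0.0557), 0 h library b (0.192), 48 h library a (0.119) and 48 h library b (0.0572).

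Zfp644, a zinc-finger protein gene, had a 20565-base member (chr5:106618071-106638635) with both ends shared. It had 2 and 4 counts at 0 h, 33 and 21 after 24 h, 12 and 21 after 48 h and 7 and 3 after 72 h. The 24 h and 48 h libraries lay above the controls, and the log2 fold change was 2.92 ± 0.61 at 24 h (edgeR adjusted p = 2.65e-04). At its start it took 20% and 23.5% at 0 h and 57.9% and 58.3% after 24 h, beside partners of 1572 and 48775 bases. At its end it took 28.6% and 26.7%, then 57.9% and 33.9%, beside members of 3805 and 19096 bases. Those end partners had log2 fold changes of 1.72 and 1.95 after 24 h (edgeR adjusted p = 0.0845 and 0.193).

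A 13650-base member in R3hcc1l (chr19:42562552-42576201) had 4 and 6 at 0 h, 22 and 25 after 24 h, 11 and 9 after 48 h and 8 and 15 after 72 h. All 6 later libraries were above the controls. Its log2 fold change at 24 h was 2.005 ± 0.56 (edgeR adjusted p = 0.0239), and its 1790-base partner had 1.74 (adjusted p = 0.364). The member's call was lost with DESeq2 (adjusted p = 0.131) and without 0 h library a (0.160), 0 h library b (0.215) or 24 h library b (0.0896).

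Lower at 72 h were 3 members, and at 2 of these loci 1 partner circle also passed. Tcf20, a transcriptional coregulator gene, had a 5772-base member (chr15:82851513-82857284) with 78 and 104 at 0 h, 95 and 96 after 24 h, 114 and 123 after 48 h and 44 and 41 after 72 h. The partner of 32054 bases at the same acceptor had 58 and 87, 85 and 83, 101 and 87, and 40 and 44. Both 72 h libraries lay below all others for each of these circles. The remaining circle at that end, of 41674 bases, had 5 and 0 at 0 h and 2 and 3 after 72 h. At 72 h the log2 fold changes were -1.26 ± 0.24 (edgeR adjusted p = 2.16e-05) for the member and -0.94 ± 0.25 (adjusted p = 0.0167) for the partner. The member took 55.3% and 54.5% of the end at 0 h and 51.2% and 46.6% after 72 h, and its ratio to the other circles changed by -0.34 (-0.86 to 0.18) at 72 h.

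Arhgap32 is another GTPase-activating protein gene. Its 26424-base member (chr9:32181842-32208265) shared both ends, and had 41 and 57 at 0 h, 32 and 38 after 24 h, 42 and 26 after 48 h and 18 and 27 after 72 h. The 38176-base partner at its end had 14 and 13, 10 and 12, 7 and 7, and 0 and 4, and the 8220-base member at its start had 45 and 43, 54 and 36, 57 and 27, and 24 and 24. Each of the 3 was lower in both 72 h libraries than in both 0 h libraries. Their log2 fold changes at 72 h were -1.28 ± 0.33 (edgeR adjusted p = 0.0121), -2.86 ± 0.75 (adjusted p = 0.0156) and -1.05 ± 0.32 (adjusted p = 0.0625). The call on the member was lost without 0 h library a (adjusted p = 0.0772), 0 h library b (0.138) or 72 h library a (0.459).

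The third was a 9298-base circle on chromosome 5 (chr5:89380313-89389610) in no protein-coding gene, both ends of which are among the 10 most counted. It had 152 and 186 at 0 h, 175 and 139 after 24 h, 128 and 124 after 48 h and 90 and 66 after 72 h. It was lower in both 48 h and both 72 h libraries than in either control. The log2 fold change was -0.77 ± 0.18 at 48 h (edgeR adjusted p = 0.00376) and -1.29 ± 0.19 at 72 h (adjusted p = 9e-09). The 48 h call was lost without 0 h library a (adjusted p = 0.109) or 48 h library a (0.464). It took at least 92.8% of the counts at either end in every library, so its partners, of 33065 and 25647 bases with summed counts of 34 and 20, could not be resolved.

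**Figure D4:**
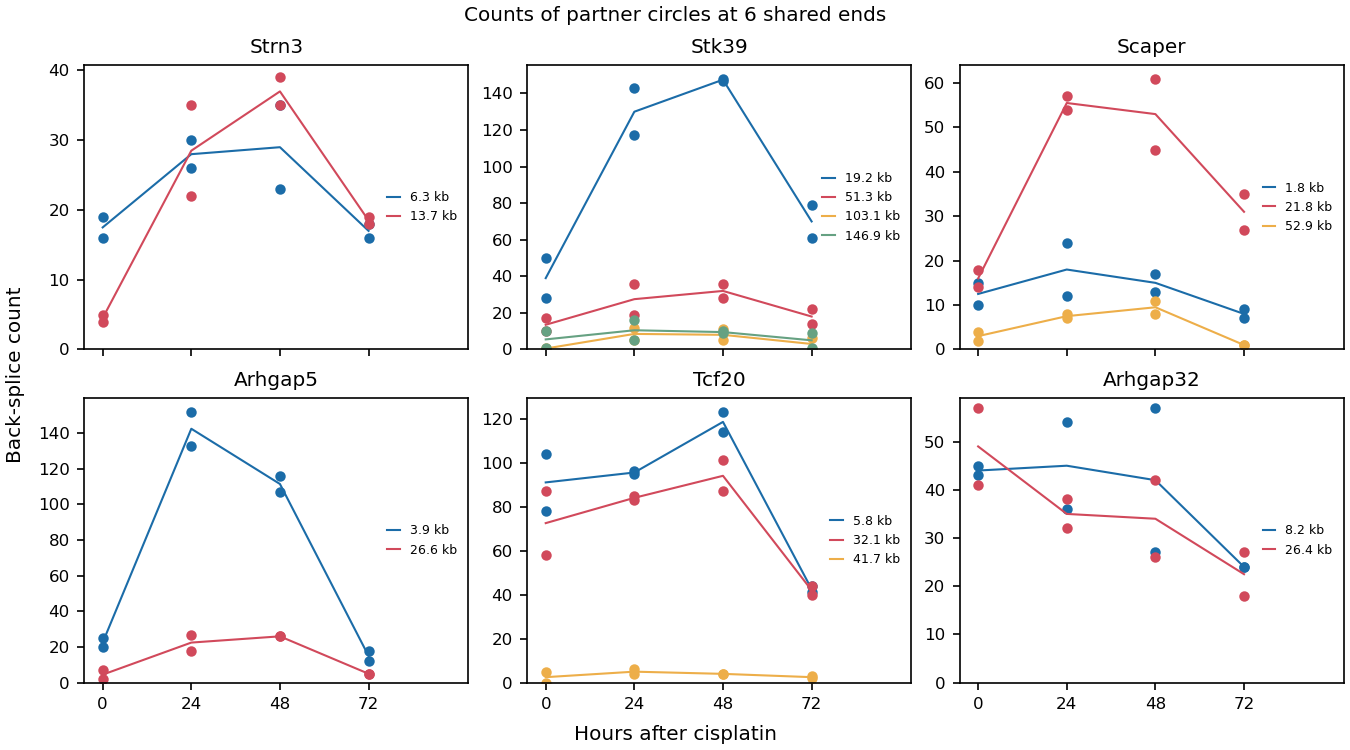
Back-splice counts as deposited (vertical axis, not scaled for library size) of the circles at 6 shared ends against hours after cisplatin; points are libraries, lines join group means, colours mark circles by span. The 2 Arhgap5 circles rise together, the 2 main Tcf20 circles fall together at 72 h, and at the Strn3 end the 13.7 kb circle goes from 4 and 5 counts to at least 18 while the 6.3 kb circle stays between 16 and 35.

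The linear RNA of the host genes gave a second measure, in FPKM (fragments per kilobase of transcript, scaled to the mapped depth). Of 240 host genes 223 had a row and 194 were tested by limma on log2(FPKM + 1). At 24 h 24 were higher and 83 lower (25.8% of 10757 rows higher, 40% lower), at 48 h 35 and 71 (28.5% and 42.1%) and at 72 h 54 and 57 (37.6% and 32.4%). Stk39 had 7.53 and 10.8 FPKM at 0 h, 21.5 and 21.1 after 24 h, 19.8 and 18.9 after 48 h and 18.1 and 16.8 after 72 h. Its log2 difference was 1.15, 1.02 and 0.88 in time order (limma adjusted p at most 3.18e-04), and all later libraries were above the controls. Strn3 had 19.0 and 20.8 FPKM at 0 h and 27.8 to 33.4 later, with differences of 0.53, 0.69 and 0.56 (adjusted p at most 4.48e-04).

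Scaper linear RNA was 3.59 and 3.35 FPKM at 0 h, 2.91 and 4.09 after 24 h and 3.40 and 3.57 after 48 h, with log2 differences of -0.00 and 0.01 that did not pass (limma adjusted p = 0.994 and 0.975), at the times when its 21799-base circle was higher. R3hcc1l had 0.39 at 24 h (limma adjusted p = 0.397), from 1.35 and 2.86 FPKM to 4.38 and 1.88. Zfp644 had 0.79 at 24 h (limma adjusted p = 1.24e-04), in a row that reaches past the gene. Arhgap5 had 0.43, 0.24 and -0.40 (limma adjusted p of 0.00248, 0.0394 and 0.00310), in a row that reaches past the gene and also spans Nubpl. Tcf20 had -0.35 at 72 h (limma adjusted p = 0.00510) and Arhgap32 -0.69, -0.80 and -0.62 (limma adjusted p at most 0.00444). Circle counts and FPKM are on different scales, and the difference between a circle's change and its host's was not tested here.

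Genes known to act on back-splicing, on splicing or on circRNA decay were read in the same table. Of 17 listed, 15 were tested: 4 were higher and 6 lower at 24 h, 5 and 4 after 48 h and 7 and 1 after 72 h. At 24 h this is near the share of all rows called, 25.8% higher and 40% lower. Over all rows 28.5% were higher and 42.1% lower at 48 h, and 37.6% and 32.4% at 72 h. The median log2 difference of the 15 was -0.11, 0.02 and 0.23. Adar, the double-strand RNA editor, had 5.86 and 5.55 FPKM at 0 h and 7.13 to 9.16 later, higher at all 3 times (0.40, 0.43 and 0.54, limma adjusted p at most 0.00684). Qk, which encodes Quaking, had 21.5 and 19.9 FPKM at 0 h, 18.3 to 21.5 at 24 and 48 h and 27.3 and 28.8 after 72 h, with a rise of 0.42 at 72 h (limma adjusted p = 8.76e-04). Celf1, a splicing and decay factor, fell by 0.75 at 24 h (limma adjusted p = 7.15e-05). Srsf1 was listed at 0 in all 8 libraries, which by itself does not show that the gene was silent.

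Cell type markers moved with time beside all of these results. The 6 proximal tubule markers summed to 3275 and 3628 FPKM at 0 h, 1323 and 1563 after 24 h, 895 and 959 after 48 h and 414 and 424 after 72 h, and 5, 6 and 6 of 6 were lower. The 4 neutrophil markers summed to 0.998 and 1.11 FPKM at 0 h and to 61.6 and 64.0 after 72 h, and 3, 4 and 4 were higher. Of 4 macrophage markers 2 were tested, with 0 higher and 1 lower at 24 and at 48 h and both higher at 72 h. Macrophage sums were 24.5 and 28.6 at 0 h and 90.6 and 92.5 after 72 h. Most of that rise was Lyz2, at 19.5 and 13.8 FPKM at 0 h and 78.9 and 79.5 after 72 h. Csf1r had 8.86 and 9.90 FPKM, then 10.6 and 12.5. Podocyte markers summed to 21.9 and 25.5 at 0 h and 46.1 and 47.3 after 72 h, with 3 of 4 higher, and endothelial markers to 40.3 and 42.7, then 76.2 and 81.4, with 4 of 4 higher. At 24 and at 48 h 3 podocyte markers were higher and 0 lower, and 2 endothelial markers were higher and 1 lower. In other nephron segments 3 of 3 tested thick ascending limb, 4 of 4 distal convoluted tubule and 4 of 4 intercalated cell markers were lower at all 3 times. Of 4 principal cell markers 2 were higher and 2 lower at 24 and at 48 h, and 2 and 1 at 72 h. None of the markers with a row in these 9 lists was listed at 0 in all libraries. Their part in the changes of circles was not tested, and in bulk samples fewer cells of a type and less RNA per cell cannot be told apart.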

How the data were processed

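The 8 libraries measured linear and circular RNA. From the circRNA table the authors deposited, 8 columns of whole-number counts per back-splice were used, whose totals differ between libraries and which were taken as not normalized. The linear table holds FPKM, so named per the file headers, and gives no depth. Per the submitters' processing notes the tools include Bowtie 0.12.2, TopHat2 and Cufflinks, with build mm10; no source used here names the circRNA caller. Its other 8 columns, headed as normalized counts per the file headers, are fractional values and were not used. Columns are lettered a or b and not numbered like the labels, so each was tied to its time group alone.

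All tests used R 4.3.3 with 8 libraries in 1 fit, were 2-sided and were adjusted by Benjamini-Hochberg over the whole table at 0.05. Abundance: edgeR 4.0.16 quasi-likelihood, TMM, robust, for circRNAs above 0 in at least 4 libraries. The SE given with a log2 fold change is not an output of edgeR. It is the size of the log2 fold change divided by the square root of its F statistic. Use: edgeR diffSpliceDGE with Simes p per end, 305 ends and 667 rows. Ratios: limma 3.58.1, weighted, pseudocount 0.5. Linear: limma on log2(FPKM + 1), rows of at least 1 FPKM in 2 libraries, a scale that understates changes of low genes. Hosts were RefSeq GRCm38.p6 protein-coding spans containing the circle, with a tolerance of 2 bases; rows matched by symbol. Alternatives included DESeq2 1.42.0, other filters and omission of each library. The procedures were tested on simulated data. Members and lists were chosen with earlier results of these data known. Named were the 10 ends with the highest summed count, the 3 ends of smallest p per use contrast, called members with non-overlapping libraries, and the 3 ends with most circles; predicted genes are named by position only.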

Additional observations from a re-analysis of the deposited data

How the results depend on the processing

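Counts limited most ends. For the mean of later times, 34 of 78 ends with at least 200 counts had a half-width of the log2 ratio interval under 1. This takes the circle listed first by position at each end. Such a half-width does not by itself exclude a 2-fold change, since the estimate can lie away from 0. The intervals had a larger median width at ends with fewer counts. The data columns carry letters and not the replicate numbers of the labels, and no source says that a letter marks a pair. Same-lettered circRNA columns did not deviate together (correlations of -0.03 to 0.04 over the 6 pairs of groups; -0.24 to 0.39 for linear RNA). A replicate block by letter, added after seeing the data, called 7, 6 and 4 members for abundance at 24, 48 and 72 h against 7, 6 and 3 without it, 0 ends for partner use, and 107, 105 and 109 host rows against 107, 106 and 111, and changed no call on a named circle. The number of ends called for partner use was 0 under all alternatives run. Members called at 72 h went from 3 to 5 with a mean count of at least 5, and ranged from 2 to 8 when 1 library was left out, with 6 and 8 when it was 24 h library a or b; the cause was not tested. With 1 library left out they ranged from 5 to 8 at 24 h and from 4 to 7 at 48 h, and host rows called from 88 to 105 at 24 h, 80 to 107 at 48 h and 85 to 116 at 72 h. For single named circles the abundance call held in 187 alternatives and was lost in 21, each given beside the circle, with no change of direction; the 161 for use stayed uncalled.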

Other observations

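Some circles nearly share an end. Besides the exact matches, 18 pairs of circles had ends on the same side that lay 3 to 27 bases apart (30 bases was the limit of the search), and all 18 pairs had the same position at the other end. In 5 pairs the distance was 3 bases. Ezh2, the catalytic subunit of the repressive complex PRC2, had circles with summed counts of 311 and 70 whose starts lay 27 bases apart. Crebrf, a regulator of CREB3 proteins, had 319 and 73 at 27 bases, and Etv6, an ETS factor gene, 209 and 33 at 4 bases. In Klhl8 the pair at 3 bases had 16 and 56. At the 6-circle end on chromosome X, circles of 40234 and 40249 bases, with summed counts of 5 and 38, had starts 15 bases apart. At the Sema5a end, circles of 81830 and 81834 bases had their other ends 4 bases apart. Such pairs share an end and count as partner circles here, but pairs in which a circle missed the count filter entered no test. The Ezh2, Klhl8, chromosome X and Sema5a pairs named here held no member, while the Crebrf and Etv6 pairs did.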
